A study of Mus musculus with 72 samples.

Results

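The genes described here are 10 members of the BCL2 family and regulators of anoikis, the cell death that follows loss of attachment. They are the survival members Bcl2, Bcl2l1 (BCL-XL) and Mcl1, the pore-forming effector Bax, and the BH3-only members Bcl2l11 (BIM), Bmf, Bad, Bbc3 (PUMA), Pmaip1 (NOXA) and Bik. They were picked by symbol, and all 10 were found among the 50600 genes of the deposited count table. Their RNA was followed in 72 libraries of mouse melanoma cell lines treated with ligands of the gastrin-releasing peptide receptor (GRPR), a receptor coupled to G proteins.

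Every line carried NRAS with the Q61K change under the Tyr promoter, which is active in the melanocyte lineage. Lines 1057 and 1064 (female, labelled GRPRpos) were Tyr::NRASQ61K/°, Cdkn2a-/-, Tyr::CreA/° and Cdh1dF/dF, so that both were ∆Ecad lines with their own Grpr. Line 1181 (male) was labelled Tyr::NRASQ61K/°, Cdkn2a-/- and Cdh1dF/dF with °/° in place of Cre, and line 1014 (female) Tyr::NRASQ61K/° alone. Each of these was used with a control vector (CMV::tGFP; 1181-Ctrl and 1014-Ctrl, labelled GRPRneg) and with a vector that drives Grpr from the CMV promoter (CMV::Grpr/tGFP; 1181-Grpr and 1014-Grpr, labelled GRPRpos). All cells were starved for 18 h in 0.5% FCS and then treated for 4 h with mock solution (0.1% DMSO), 10 nM GRP, 1 µM RC (RC-3095, which blocks GRPR), or the combination of both ligands (GRP+RC), with 3 libraries in each of the 24 groups. Each line is a single cell line, and the vector lines were selected with geneticin, so that a difference between lines is a difference between these cell populations. Nothing in the labels says whether the 3 libraries came from separate cultures, and p-values therefore measure the spread between these libraries. In bulk RNA, fewer cells of a kind and less RNA per cell cannot be told apart.

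Library totals ran from 19512882 to 46862053 counts. The 9 melanocyte markers examined were all above 1 CPM (counts scaled to the size of the library) on average in each of the 6 lines, and their summed level was between 6224 and 38225 CPM, whereas leukocyte, fibroblast, endothelium and keratinocyte lists each summed to at most 32.7 CPM. Among mock-treated libraries, Grpr was at 273 to 276 CPM in 1057, 780 to 1273 in 1064, 108 to 141 in 1014-Grpr and only 8.46 to 17.9 in 1181-Grpr. Cdh1, which encodes E-cadherin, was at most 0.117 CPM in 1057 and 1064 and was detected in 1181 and 1014, including the 1181 lines that are labelled Cdh1dF/dF. In all, 2 libraries went against their labels. The library labelled 1014-Ctrl mock replicate 2 had 48.1 CPM of Grpr and 64.3 CPM of the Y-linked gene Ddx3y, and the library labelled 1181-Grpr GRP+RC replicate 2 had 0 CPM of both. Where leaving out these libraries changed a call, an order or a level by much, the values without them are given as well.

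BCL2 family proteins decide whether the outer mitochondrial membrane is opened during apoptosis. BAX and its relative BAK form the pore, the survival members hold them in check, and BH3-only members bind the survival members or activate the effectors. In cells that lose contact with the matrix, BIM and BMF are the BH3-only members best known for starting anoikis, and in melanoma MCL1 and BCL-XL are well-known survival factors.

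Positions are those of mouse genome build GRCm38 in GENCODE M21. Bcl2 is at chr1:106538178-106714274 on the minus strand, Bcl2l1 at chr2:152780668-152831728 on the minus strand and Mcl1 at chr3:95658788-95663176 on the plus strand. Bax is at chr7:45461697-45466898 on the minus strand, Bcl2l11 at chr2:128126038-128162547 on the plus strand, Bmf at chr2:118528757-118549687 on the minus strand, Bad at chr19:6941861-6951899 on the plus strand and Bbc3 at chr7:16308393-16318205 on the plus strand. Bik is at chr15:83526862-83544634 on the plus strand. For 7 of the 10 no annotated gene shares exonic bases. Bad shares 20.48% of its exonic bases with Gpr137 on the opposite strand, and Bcl2 6.09% with an antisense gene. Counts over these stretches are uncertain because the strand setting of the counting is not given in the sources used here. Bax shares 12.18% with Gm45808 on the same strand, where no strand setting separates the genes, so counts there are uncertain as well.

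The stretches upstream of Mcl1, Bcl2l1 and Bcl2l11 are shown as examples, for the survival members that rose with GRP in 1057 and 1014-Grpr and the BH3-only member that fell most in 1014-Grpr. Each is the 250 bases before a RefSeq transcript start (GRCm38.p6), read 5′ to 3′ on the gene's strand, and capitals mark matches, on either strand, to the motifs named after them.
Mcl1, chr3:95658471-95658720, plus strand: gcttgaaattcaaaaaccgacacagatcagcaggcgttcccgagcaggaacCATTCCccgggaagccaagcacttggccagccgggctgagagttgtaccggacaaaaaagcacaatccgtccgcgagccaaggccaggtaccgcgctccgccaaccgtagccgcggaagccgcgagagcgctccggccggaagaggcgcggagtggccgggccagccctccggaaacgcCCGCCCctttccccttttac
Bcl2l1, chr2:152831729-152831978, minus strand: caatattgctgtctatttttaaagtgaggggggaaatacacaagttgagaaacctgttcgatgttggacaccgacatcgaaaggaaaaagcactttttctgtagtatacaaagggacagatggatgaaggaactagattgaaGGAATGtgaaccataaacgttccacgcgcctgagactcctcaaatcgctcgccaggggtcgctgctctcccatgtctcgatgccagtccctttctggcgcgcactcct
Bcl2l11, chr2:128125788-128126037, plus strand: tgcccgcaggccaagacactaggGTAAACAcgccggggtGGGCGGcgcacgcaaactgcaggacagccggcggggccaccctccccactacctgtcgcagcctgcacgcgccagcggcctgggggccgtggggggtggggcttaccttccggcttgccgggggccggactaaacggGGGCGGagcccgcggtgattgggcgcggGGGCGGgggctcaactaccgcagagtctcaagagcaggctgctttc

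The Mcl1 window held 1 match to GGAATG, the TEAD motif, and 1 to GGGCGG, the GC box. The Bcl2l1 window printed held 1 TEAD match, and the Bcl2l11 window printed 1 match to TGTTTAC, the FOXO motif, and 3 GC boxes. Of 32851 mouse windows of the same length, 12.64% held the TEAD motif, 3.17% the FOXO motif and 32.74% the GC box. The other motifs searched, CRE (TGACGTCA) and its shorter core TGACG, AP-1 (TGANTCA), the E-box (CACGTG) and the CArG box, had no match in the 3 windows. No motif was shared by all 3, and a match is a description of the letters only. Each window printed is that of the most upstream start, and RefSeq gives further starts for Bcl2l1 and Bcl2l11. Their windows held no TEAD and no FOXO match, and that of Bcl2l11 held 2 GC boxes.

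In mock-treated cells, the survival members Mcl1 and Bcl2l1 had the highest levels per length among the 10 genes, except that Bax stood above both in 1181-Ctrl. On the TPM scale (the authors' values, scaled to transcript length and library size and so comparable between genes), line means of Mcl1 ran from 101 to 294 and those of Bcl2l1 from 137 to 418. Bax was at 74.8 to 177 TPM and Bad at 30.3 to 51.3 TPM. Bbc3 was at 11.2 to 56.6, Bcl2 at 15.6 to 40.4, Bcl2l11 at 10.9 to 18.4 and Bmf at 7.09 to 21.3 TPM. Pmaip1 and Bik were close to absent. Pmaip1 had 0 counts in 34 of the 72 libraries and at most 101 counts in any, and Bik had 0 counts in 21 libraries and never more than 16.

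**Figure D1:**
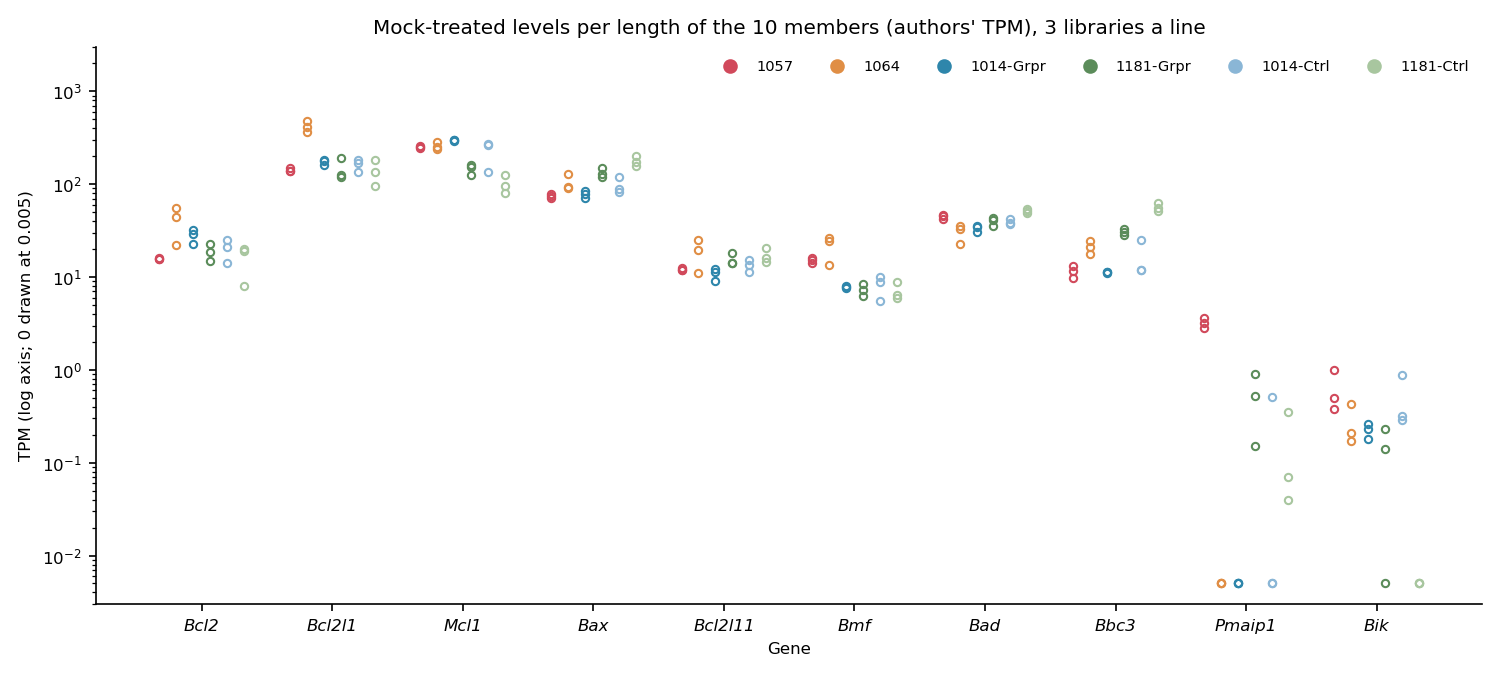
Level per length (authors' TPM, log axis, values of 0 drawn at 0.005) of the 10 genes in the 3 mock-treated libraries of each line, 1 point a library and 1 colour a line. By line means Mcl1 and Bcl2l1 are highest in 5 of 6 lines, Bcl2l1 of 1064 stands above that of the other lines, and Pmaip1 rises clearly above 0 in 1057.

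Each gene that could be tested differed between some of the lines before any ligand was added. The number of pairs of lines that differed was 4 to 10 of 15 for a gene. Without the library against its label it was 4 to 11, with Bbc3 at 11. Pmaip1 differed in 7 pairs, and some of its calls rest on lines without any count, as given below. Shares over all genes are given below for 4 of these pairs only. The ranges therefore do not show whether the members differed more often than other genes. In edgeR's quasi-likelihood fit of the 18 mock libraries, with Benjamini-Hochberg adjustment over the 15358 genes tested, 9 of the 10 genes could be tested (all but Bik). Levels from here on are CPM with TMM scaling over the 72 libraries, which are comparable between libraries of a gene but not between genes. Differences are log2 fold changes ± SE.

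Among the survival members, Bcl2l1 was at 519, 610 and 753 CPM in 1064, against line means of 161 to 219 elsewhere. The next line, 1014-Grpr, was 1.50 ± 0.22 lower (adjusted p = 3.9e-05), and the other 5 lines did not differ from their neighbours in that order. Mcl1 was at means of 287 in 1064, 285 in 1057, 276 in 1014-Grpr, 207 in 1014-Ctrl, 133 in 1181-Grpr and 88.4 in 1181-Ctrl, with no difference between neighbours that passed the test. Without the library that goes against its label, Mcl1 was at 248 CPM in 1014-Ctrl, and both lower steps passed, by 0.91 ± 0.15 from 1014-Ctrl to 1181-Grpr (adjusted p = 0.00023) and by 0.60 ± 0.13 from 1181-Grpr to 1181-Ctrl (adjusted p = 0.0058). Bcl2 was highest in 1064, at 155, 130 and 70.1 CPM, and lowest in 1181-Ctrl, at 45.7, 19.1 and 44.8, and no neighbours differed with all libraries in the fit. Without the library against its label, the step from 1064 to 1014-Grpr passed (0.74 ± 0.30, adjusted p = 0.0453).

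Bax and Bbc3 had their highest means in 1181-Ctrl, the line with the lowest mean of Mcl1. Bax was at 80.2, 64.9 and 70.5 CPM in 1181-Ctrl and at 34.9, 37.2 and 30 in 1014-Grpr. No neighbours differed for Bax with all libraries in the fit, and its step from 1181-Ctrl to 1181-Grpr was 0.36 ± 0.15 (adjusted p = 0.16). Bbc3 was at 32.9, 31.4 and 28.6 CPM in 1181-Ctrl, at 18.5, 16.2 and 17.5 in 1181-Grpr and at 6.55, 6.62 and 6.44 in 1014-Grpr. The step from 1181-Ctrl to 1181-Grpr was 0.83 ± 0.23 (adjusted p = 0.031) and that from 1064, at a mean of 14.5, to 1014-Ctrl, at 9.41, was 0.62 ± 0.23 (adjusted p = 0.034). Without the library against its label, Bbc3 was at 6.87 CPM in 1014-Ctrl, below 1057, and the step from 1064 was to 1057 (0.84 ± 0.13, adjusted p = 7.39e-05). The step of Bax from 1064 to 1057 passed in that fit as well (0.43 ± 0.13, adjusted p = 0.00906).

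The BH3-only member Bmf had its highest levels in the ∆Ecad lines. It was at 39.4, 44.4 and 24.2 CPM in 1064 and 28.9, 26.3 and 24.3 in 1057, with line means between 9.61 and 11.5 in the remaining 4 lines. The libraries of these lines did not overlap with those of the others, but how many other genes set the lines apart in this way was not counted. Line 1057 was 1.19 ± 0.24 above 1014-Ctrl, the next line (adjusted p = 0.00066). Without the library against its label 1014-Ctrl was at 13.3 CPM and the difference was 0.98 ± 0.22 (adjusted p = 0.00176). Bcl2l11 ranged from a mean of 24 CPM in 1014-Grpr to 47.7 in 1064 and Bad from 18.6 in 1014-Grpr to 29.9 in 1057, with no neighbours that differed. Pmaip1 was at 2.54, 3.13 and 2.72 CPM in 1057 and had no count in the mock libraries of 1064 and 1014-Grpr. Set against a floor of 3 counts per library, its level in 1057 was at least 17.6-fold higher than in 1064 and at least 21.1-fold higher than in 1014-Grpr.

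Between the ∆Ecad lines, 7 of 9 tested genes differed, where 49.4% of all tested genes did. Among the 7, Pmaip1 had 0 counts in the 1064 mock libraries and was high enough to be tested through its counts in 1057. Its call was therefore close to fixed in advance and adds nothing to that comparison. Relative to 1064, 1057 had lower Bcl2l1 (by 1.54 on the log2 scale), Bcl2, Bbc3, Bcl2l11 and Bax, and higher Bad and Pmaip1. Without replicate 1 the calls were 3 of 9 (Bcl2l1, Bad and Pmaip1). That of Bcl2l11 was also lost without replicate 2 or with the replicate number as a block, and those of Bax and Bbc3 without replicate 3. That block is shared by all the lines, although replicate numbers did not pair the samples in 1057. Between 1181-Ctrl and 1014-Ctrl, 3 of 9 differed (34.6% of all genes), with Mcl1 lower and Bax and Bbc3 higher in 1181-Ctrl. The call of Bax was lost without replicate 1, and those of Mcl1 and Bax without replicate 3. Resting fits without replicate 1 or 3 keep the 1014-Ctrl mock library against its label, with 1 other library in its group. The Grpr and control-vector versions of a line were compared in the same way. With all libraries in the fit, Bbc3 was the 1 member of 9 that differed between 1181-Grpr and 1181-Ctrl (9.73% of all genes), a call that was lost without replicate 1 or 3. Without the mock library against its label, Mcl1 and Bbc3 differed (2 of 9, 16.3% of genes). None differed between 1014-Grpr and 1014-Ctrl, where 13 genes (0.0846%) passed and 1 member had an unadjusted p under 0.05, and DESeq2 called none.

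GRP raised the RNA of the survival members Mcl1 and Bcl2l1 and lowered that of Bcl2l11 and Bad in 1057 and in 1014-Grpr. In 1057, 6 of 10 tested members passed an adjusted p of 0.05, where 52.6% of all 14195 tested genes did. Of these 6, 3 were higher (25.7% of all genes) and 3 lower (26.9%). In 1014-Grpr 6 of 8 passed, where 29.0% of 13730 genes did, again 3 upwards (16.3% of all genes) and 3 downwards (12.7%). In 1064 it was 1 of 8, upwards, where 6.38% of 13794 genes passed (3.62% upwards and 2.76% downwards). The median log2 fold change of the tested members was -0.04 in 1057, 0.20 in 1014-Grpr and 0.02 in 1064, against -0.01, -0.02 and -0.02 over all genes. No member changed by more than 2-fold in these 3 lines, a size that 6.46% of genes reached with a call in 1057, 4.01% in 1014-Grpr and 2.32% in 1064.

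Mcl1, a short-lived survival protein, rose in all 3 of these lines. In 1057 it was at 299, 276 and 279 CPM in mock libraries and 530, 528 and 510 with GRP. That is a rise of 0.90 ± 0.03, or 1.87-fold (adjusted p = 1.47e-13). In 1014-Grpr it went from 282, 281 and 265 to 344, 429 and 408 CPM, a rise of 0.52 ± 0.08 (adjusted p = 0.000389). The GRP libraries of both lines all lay above all mock libraries. In 1064 it went from 262, 268 and 332 to 458, 503 and 427 CPM, again without overlap, a rise of 0.70 ± 0.12 (adjusted p = 0.0122). This call was lost without replicate 1 (adjusted p = 0.16) or replicate 2 (adjusted p = 0.21). Fits that leave out a replicate, here and elsewhere, keep 2 libraries a group and do not use the replicate numbers.

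Bcl2l1, whose long product BCL-XL holds BAX and BAK in check, rose by nearly the same amount in 1057 and 1014-Grpr. In 1057 it went from 232, 210 and 205 to 368, 364 and 356 CPM (0.78 ± 0.04, adjusted p = 4.51e-12). In 1014-Grpr it went from 228, 206 and 223 to 364, 373 and 374 CPM (0.77 ± 0.06, adjusted p = 4.66e-06). The groups were apart in both lines, and the fold was 1.71 and 1.7. Counts per gene do not separate the long from the short splice form. In 1064, where Bcl2l1 started highest, it was at 519, 610 and 753 CPM without and 734, 844 and 778 with GRP, so that the groups overlapped (0.33 ± 0.13, adjusted p = 0.18).

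Bcl2, the founding survival member, did not pass in any line when replicate numbers were ignored. In 1057 it stayed between 46.9 and 49.4 CPM over mock and GRP libraries. In 1014-Grpr it went from 58.6, 81.2 and 70.9 to 80.2, 104 and 91.6 CPM. These groups overlapped, but each GRP library lay above the mock library of its own number.

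In 1014-Grpr and 1064 libraries of the same number deviated together, and a fit with the replicate number as a block was therefore made as well. In 1014-Grpr the block added Bcl2 (0.40 ± 0.04, adjusted p = 1.02e-07) to the 6 members called, 7 of 8 in all, and the share of all genes called went to 53.6%. In 1064 the block raised the members called from 1 to 4 and the share of all genes from 6.38% to 43.5%. The 3 survival members then all rose in 1064. Bcl2l1 rose by 0.34 ± 0.08 (adjusted p = 0.00696), and Bcl2, at 155, 130 and 70.1 CPM in mock and 163, 175 and 76.8 in GRP libraries, by 0.22 ± 0.07 (adjusted p = 0.0342). Mcl1 rose by 0.69 ± 0.10 (adjusted p = 0.000514). Replicate 3 of 1064 was the lowest library for Bcl2 and Bmf under each of the 4 treatments.

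**Figure D2:**
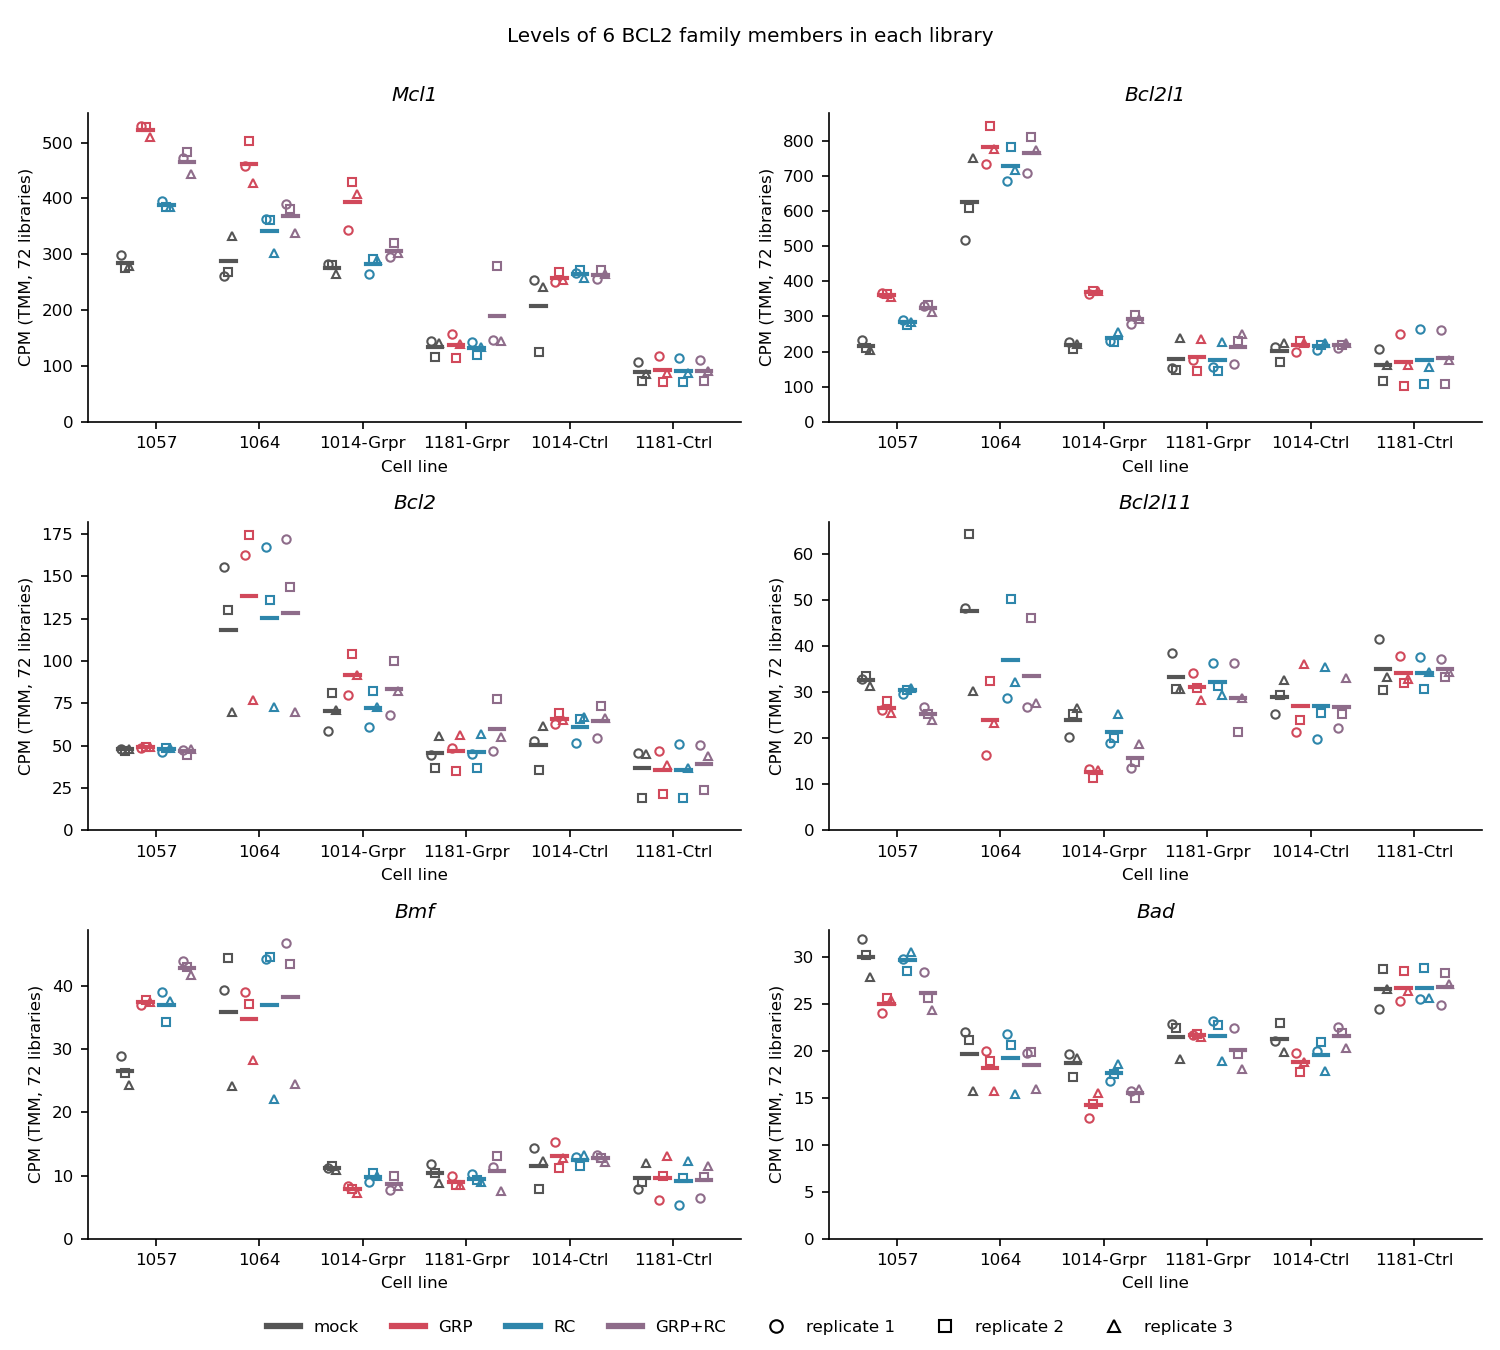
Level (CPM, TMM over 72 libraries, axis from 0) of 6 members in every library, by line and treatment, with marker shapes for replicate numbers and bars for group means. GRP libraries lie above mock libraries for Mcl1 in 1057, 1064 and 1014-Grpr, and replicate 3 of 1064 lies apart for Bcl2 and Bmf.

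Among BH3-only members, Bcl2l11 fell. BIM, its product, can bind every survival member. In 1014-Grpr it was at 20.2, 25.2 and 26.4 CPM in mock and 13.3, 11.4 and 13.1 in GRP libraries. That is a fall of 0.92 on the log2 scale, with an SE of 0.14 (adjusted p = 0.000593), so that the level with GRP was 0.529 of that in mock. In 1057 it fell from 32.9, 33.5 and 31.3 to 26.1, 28.1 and 25.4 CPM (-0.27 ± 0.05, adjusted p = 0.00014). In 1064 it was at 48.3, 64.4 and 30.2 without and 16.3, 32.3 and 23.3 with GRP, with overlapping groups and a call only under the block (-0.98 ± 0.17, adjusted p = 0.000983, against 0.13 without it).

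Bmf, one of the BH3-only members named above for anoikis, moved in opposite directions in 2 lines. In 1057 it rose from 28.9, 26.3 and 24.3 to 37.1, 37.8 and 37.5 CPM (0.53 ± 0.06, adjusted p = 2.34e-07). In 1014-Grpr it fell from 11.1, 11.5 and 10.9 to 8.3, 7.91 and 7.19 CPM (-0.51 ± 0.11, adjusted p = 0.00388). Neither pair of groups overlapped. In 1064 Bmf was at 39.4, 44.4 and 24.2 CPM in mock and 39, 37.2 and 28.3 in GRP libraries, and it was not called under either fit.

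Bad, whose product is held inactive by phosphorylation downstream of growth factors, fell in 1057 from 31.9, 30.1 and 27.8 to 24, 25.6 and 25.4 CPM (-0.23 ± 0.06, adjusted p = 0.00196). In 1014-Grpr it fell from 19.6, 17.1 and 19.2 to 12.8, 14.3 and 15.4 CPM (-0.38 ± 0.08, adjusted p = 0.00503). The groups did not overlap in either line, but the call in 1014-Grpr was lost without replicate 1 (adjusted p = 0.10). In 1064 it was at 22, 21.1 and 15.7 and then 20, 18.8 and 15.7 CPM (-0.11 ± 0.18).

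Bbc3 and Pmaip1, both p53 target genes, each changed in 1 line. Bbc3 went from 6.55, 6.62 and 6.44 to 8.02, 9.88 and 7.42 CPM in 1014-Grpr (0.37 ± 0.13, adjusted p = 0.0413), a call that was lost when any replicate was left out (adjusted p = 0.052 to 0.25). In 1057 it was -0.13 ± 0.11. Pmaip1 fell in 1057 from 2.54, 3.13 and 2.72 to 1.71, 1.91 and 1.73 CPM (-0.62 ± 0.13, adjusted p = 0.000543). It had 0 counts in all mock and GRP libraries of 1064 and 1014-Grpr, where no fold can be given. The effector Bax was at 0.05 ± 0.05 in 1057, 0.08 ± 0.19 in 1064 and 0.02 ± 0.10 in 1014-Grpr and was not called in any of them. Bik, at most 0.31 CPM in mock and GRP libraries of 1057, was -0.46 ± 0.74 there and was too low to be tested in the fits of the other lines. Grpr itself moved with GRP in the same libraries, by 2.10 ± 0.18 in 1014-Grpr, -0.40 ± 0.04 in 1057 and -1.01 ± 0.16 in 1064, all called. In 1181-Grpr its GRP libraries, at 80.7, 19.0 and 39.5 CPM, all lay above the mock libraries, but it was not called (1.97 ± 1.12). The part of Grpr in the changes of the members was not tested.

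No member was called with GRP in the remaining 3 lines. In 1181-Grpr, which had the lowest Grpr level of the receptor lines, 0 of 9 members and 0 of all genes were called with edgeR, 0 members and 45 genes had an unadjusted p under 0.05, and DESeq2 called 0 genes. In 1181-Ctrl (9 members tested) and 1014-Ctrl (8 tested) edgeR and DESeq2 also called 0 genes, and 37 and 562 genes, with 0 members among them, had an unadjusted p under 0.05. Mcl1 in 1181-Grpr was at 144, 116 and 140 CPM in mock and 157, 113 and 139 in GRP libraries (0.03 ± 0.24). In 1014-Ctrl its mock libraries were at 255, 126 and 242 CPM, where the low value is the library that goes against its label, and its GRP libraries at 250, 268 and 254. The log2 fold change was 0.31 with that library and 0.05 without it.

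**Figure D3:**
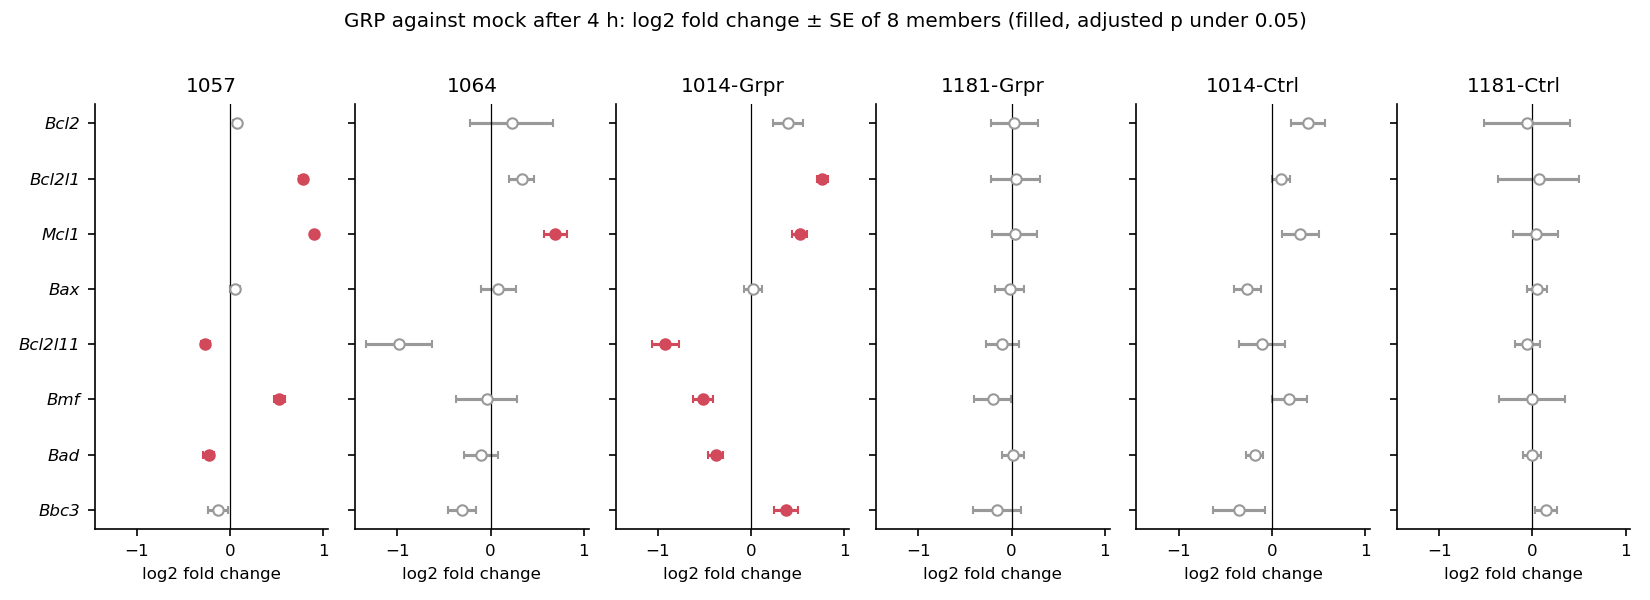
Log2 fold change of GRP against mock (edgeR, points, bars are SE) of 8 members in each of the 6 lines, filled where the adjusted p is under 0.05. Filled points are 5 in 1057, 6 in 1014-Grpr and 1 in 1064, with none in 1181-Grpr and the control lines; Pmaip1 and Bik are not drawn.

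Whether the response depended on the receptor vector was tested as a difference between the GRP effects of a Grpr line and its control line. For 1014, Bcl2l1 responded more with Grpr than without, by 0.67 ± 0.12 (adjusted p = 0.000893), and the Bmf effect, a fall with Grpr, was lower by -0.70 ± 0.22 (adjusted p = 0.0406). These were 2 of 8 members, where 13.6% of all genes were called. Both calls were lost without replicate 1 or 3, and that of Bmf also without replicate 2 or without the filter on low counts. The fits without replicate 1 or 3 keep the 1014-Ctrl mock library that goes against its label, with 1 other library in its group. With only that library left out, both differences were called. Mcl1 differed by 0.21 ± 0.22 with all libraries and by 0.48 ± 0.10 (adjusted p = 0.00189) without the mock library that goes against its label, where 3 of 8 members and 16.8% of genes were called. With the block and all libraries, 3 of 8 members (23.1% of genes) differed, Bcl2l11 being the third (-0.78 ± 0.17, adjusted p = 0.00291). Without that library and with the block, 5 of 8 members differed and 30.9% of genes, namely Bcl2, Bcl2l1 and Mcl1 upwards and Bcl2l11 (-0.85 ± 0.16) and Bmf downwards. For 1181, 0 of 9 members differed with edgeR (0 genes called, 58 with an unadjusted p under 0.05, none of them members, and 0 with DESeq2).

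The GRP effects of the receptor lines were also compared in pairs, a comparison chosen after the data were seen. The effect on Bmf was 1.03 ± 0.12 larger in 1057 than in 1014-Grpr (adjusted p = 8.91e-07), where Bmf rose and fell, respectively. Between these lines, Mcl1 rose more in 1057 (by 0.37 ± 0.08, adjusted p = 0.00318), Bcl2l11 fell less (0.64 ± 0.15, adjusted p = 0.00576), and the Bbc3 effect was -0.52 ± 0.17 (adjusted p = 0.0375). That makes 4 of 9 members, against 15.1% of all genes. Between 1057 and 1181-Grpr 2 of 9 differed (8.28% of all genes), with Mcl1 0.85 ± 0.25 (adjusted p = 0.0398) and Bmf 0.71 ± 0.20 (adjusted p = 0.0299) above. The Bcl2l1 effect in 1057 was not shown to differ from that in 1014-Grpr. No member passed with edgeR in the other 4 pairs, in which 1 to 3 members had an unadjusted p under 0.05 and the shares of all genes called were 1.3% (1057 and 1064), 0.352% (1064 and 1181-Grpr), 0.247% (1064 and 1014-Grpr) and 3.55% (1181-Grpr and 1014-Grpr). DESeq2 was not run on these pairs. Without the library of 1181-Grpr that goes against its label, 2 of 9 members (6.92% of genes) differed between 1181-Grpr and 1014-Grpr, namely Bcl2l11 (0.82 ± 0.21, adjusted p = 0.0179) and Bbc3 (-0.53 ± 0.15, adjusted p = 0.0375). With the block as well, 4 of 9 differed (14.4% of genes), with Bcl2l1 (-0.71 ± 0.20) and Mcl1 (-0.48 ± 0.14) added, and Mcl1 also differed between 1064 and 1181-Grpr (0.67 ± 0.17, 1 of 9 members and 5.88% of genes).

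The antagonist RC, given alone, raised the survival members Mcl1 and Bcl2l1 in 1057 as well. Mcl1 was at 395, 384 and 385 CPM with RC (0.44 ± 0.03 against mock, adjusted p = 3.4e-08) and Bcl2l1 at 290, 275 and 286 (0.39 ± 0.04, adjusted p = 5.81e-07). For both genes the RC libraries lay between the mock and the GRP libraries, without overlap. Bmf was at 39.2, 34.3 and 37.7 CPM (0.48 ± 0.06, adjusted p = 5.41e-06), around the level of the GRP libraries. Bax (0.16 ± 0.05, adjusted p = 0.0313) and Bbc3 (0.34 ± 0.10, adjusted p = 0.0189) were also higher, though both calls were lost without replicate 1 or 3. In all, 5 of 10 members were called, where 24.3% of genes were. Bcl2l11 was at -0.11 ± 0.05 and Bad at -0.02 ± 0.06, neither of them called.

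No such effect of RC was called in 1014-Grpr or 1064. In 1014-Grpr, 0 of 8 members and 0 genes passed with edgeR, no member and 161 genes had an unadjusted p under 0.05, and DESeq2 called 0 genes. In 1064 the numbers were the same, but for 129 genes with an unadjusted p under 0.05. Mcl1 was at 265, 291 and 289 CPM with RC in 1014-Grpr (0.04 ± 0.08) and at 363, 361 and 302 in 1064 (0.25 ± 0.12). The 1181-Grpr, 1181-Ctrl and 1014-Ctrl lines also had 0 members and 0 genes called for RC, for GRP+RC against mock and for GRP+RC against GRP, with 33 to 694 genes and no member at an unadjusted p under 0.05, and 0 genes with DESeq2. In 1014-Ctrl without its library against the label, and with the block, 1 member, Bax, was higher with GRP+RC than with GRP (0.19 ± 0.04, adjusted p = 0.0296, 0.604% of genes called).

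When RC was given together with GRP, Mcl1 and Bcl2l1 were lower than with GRP alone in 1057 and 1014-Grpr, and Bcl2l1 remained above mock in both. In 1014-Grpr, Mcl1 was at 296, 320 and 303 CPM and Bcl2l1 at 277, 304 and 294, between the mock and the GRP libraries without overlap. Against GRP alone, Mcl1 was -0.36 ± 0.08 (adjusted p = 0.00927) and Bcl2l1 -0.35 ± 0.06 (adjusted p = 0.00331), 2 of 8 members, where 11.8% of genes were called. Each call was lost in some fits that left out a replicate, for Bcl2l1 without replicate 1 and for Mcl1 without replicate 2 or 3. Under the block, 4 of 8 members (38.7% of genes) differed, with Bcl2 also lower (-0.15 ± 0.04) and Bcl2l11 higher (0.33 ± 0.09, adjusted p = 0.00798). Against mock, Bcl2l1 was still higher by 0.42 ± 0.06 (adjusted p = 0.0125), 1 of 8 members where 0.947% of genes were called, and this call was lost when any replicate was left out. Under the block 6 of 8 members (17.3% of genes) differed from mock in the direction of GRP, namely Bcl2, Bcl2l1, Mcl1, Bcl2l11, Bmf and Bad.

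In 1057 the step from GRP to GRP+RC was smaller. Mcl1 was at 472, 482 and 443 CPM (-0.19 ± 0.03 against GRP, adjusted p = 0.000341) and Bcl2l1 at 330, 333 and 313 (-0.18 ± 0.04, adjusted p = 0.00128). Bmf, at 44, 43.1 and 41.8 CPM, was higher than with GRP alone (0.17 ± 0.05, adjusted p = 0.0232), a call that was lost when any replicate was left out. These were 3 of 10 members, where 24.7% of genes were called. Against mock, 5 of 10 members differed (44.3% of genes), with Mcl1 at 0.71 ± 0.03, Bcl2l1 at 0.60 ± 0.04, Bmf at 0.70 ± 0.05, Bcl2l11 at -0.36 ± 0.05 and Bad at -0.19 ± 0.06. The last of these was lost without replicate 2. Bmf therefore had its highest level with both ligands, where all 3 libraries lay above every other library of the line.

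In 1064, Mcl1 was at 389, 381 and 337 CPM with both ligands, between the mock and GRP libraries. Against GRP this was -0.34 ± 0.12, which was called under the block (adjusted p = 0.04, 1 of 8 members and 21.2% of genes) and not without it (adjusted p = 0.37, 0 members called, 1 member with an unadjusted p under 0.05, and 4 genes or 0.029% called). DESeq2 called 226 genes and no member. Against mock 0 members and 0 genes were called with edgeR or DESeq2, and 1 member and 352 genes had an unadjusted p under 0.05.

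**Figure D4:**
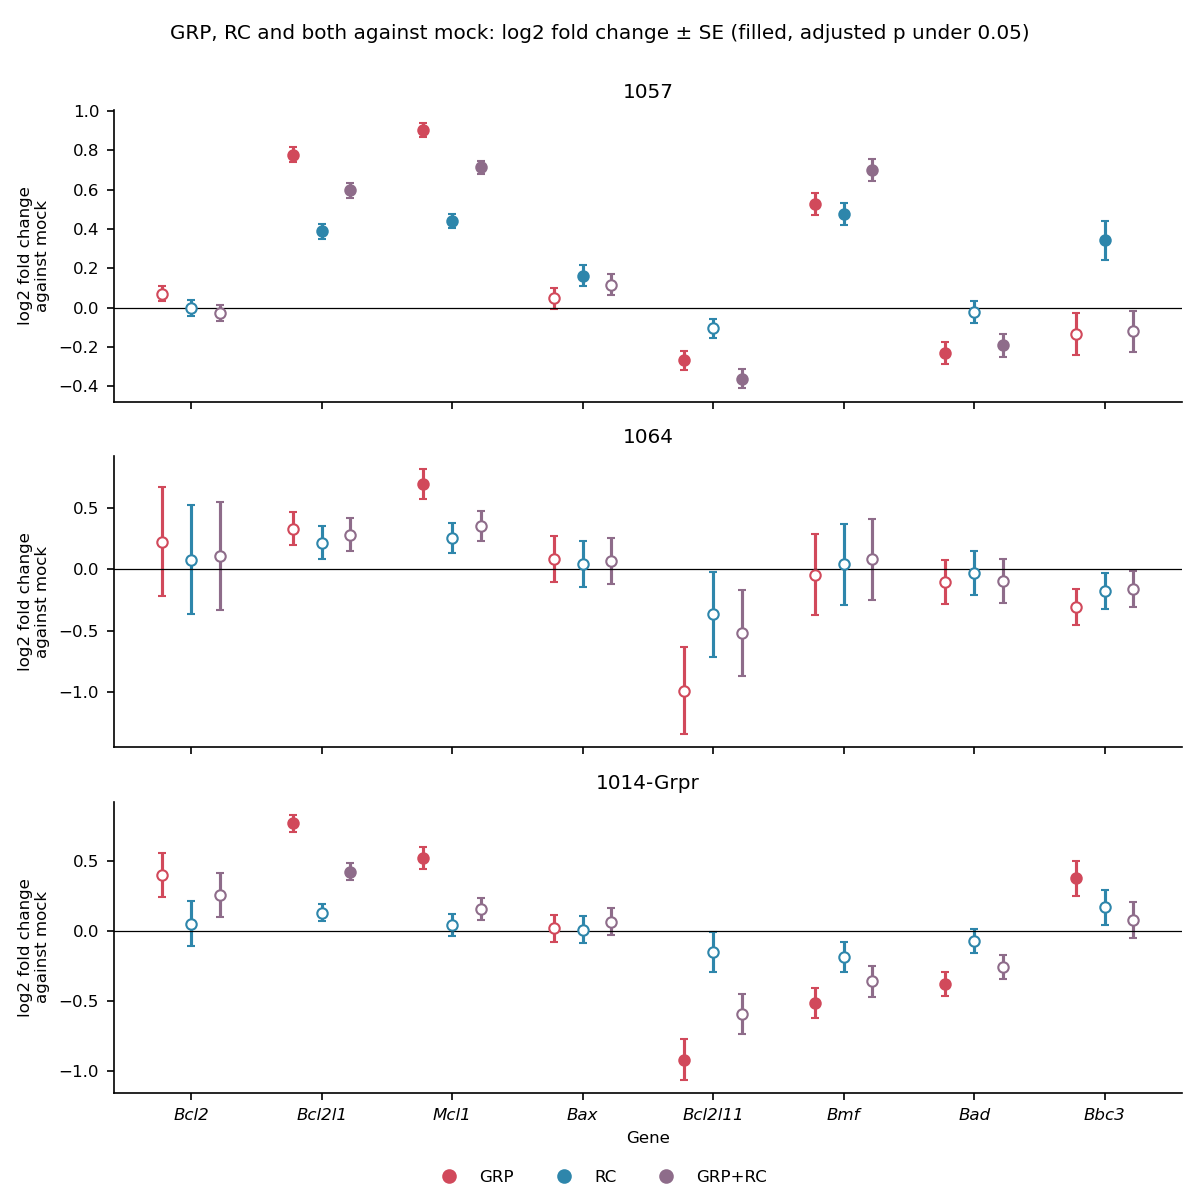
Log2 fold change against mock (edgeR, points, bars are SE) of 8 members with GRP, RC or both in 1057, 1064 and 1014-Grpr, filled where the adjusted p is under 0.05. For Mcl1 and Bcl2l1 the points of GRP+RC lie below those of GRP in 1057 and 1014-Grpr, while for Bmf in 1057 the point of GRP+RC is the highest of the 3 at 0.70.

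As a description of the balance within the family, the summed TPM of the 3 survival members was divided by that of the 6 BH3-only members in each library, with no test. With GRP the ratio went from 4.66 ± 0.24 (SD, n = 3) to 8.76 ± 0.26 in 1057 and from 7.77 ± 0.30 to 14.5 ± 0.49 in 1014-Grpr. In 1064 it went from 8.38 ± 3.18 to 13.3 ± 0.68. The groups were apart in these 3 lines. The ratio was 3.33 ± 0.80 and 3.56 ± 0.59 in 1181-Grpr, 1.91 ± 0.48 and 1.89 ± 0.65 in 1181-Ctrl, and 5.38 ± 1.80 and 6.93 ± 0.94 in 1014-Ctrl (6.42 in mock without the library against its label). Mcl1 and Bcl2l1 make up most of the upper sum, and RNA levels do not measure the proteins.

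Over the 72 libraries, with each line's mean log2 CPM subtracted, Mcl1 and Bcl2l1 were the pair of survival members that varied most alike (Pearson r = 0.75, and 0.81 over the 70 libraries without those against their labels). Bcl2l1 and Bad varied in opposite directions (r = -0.63 and -0.62), as did Mcl1 and Bcl2l11 (r = -0.42 and -0.40). These values describe libraries that share treatments, lines and replicate numbers. For Mcl1 and Bbc3 the value went from -0.45 to -0.04 without the libraries against their labels. The genes most like Mcl1 on this measure, among 12501, were Tagln2 (0.94), Pdia3 (0.93), Pde8a (0.92), Rassf1 (0.91) and Cmtm3 (0.90). Without the libraries against their labels, Tagln2 stayed among the first 5 (0.92), beside Mafk, Klf6, Rgs2 and Gm16062.

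Other genes of apoptosis and anoikis were followed in lists of 72 genes. With GRP, 48 of 61 tested were called in 1057 (21 higher and 27 lower), 30 of 60 in 1014-Grpr (21 higher and 9 lower) and 11 of 61 in 1064 (7 higher and 4 lower), shares of 78.7%, 50% and 18% beside the shares of all genes given above. Under the block the counts were 27 higher and 17 lower in 1014-Grpr and 22 higher and 21 lower in 1064. In the other 3 lines no gene at all was called with edgeR. In 1057, 7 of the 9 genes of the apoptosome and caspase list were lower and 1 higher, with a median log2 fold change of -0.31. In 1064 the same list had 2 lower, and 7 lower and 1 higher under the block, and in 1014-Grpr 3 lower and 1 higher. Of the 4 ubiquitin ligase and deubiquitinase genes that set MCL1 protein turnover (Huwe1, Usp9x, Fbxw7 and Btrc), edgeR without the block called 0 in 1057, 0 in 1014-Grpr and 0 in 1064 (1, 3 and 0 with an unadjusted p under 0.05), DESeq2 called 0, 1 and 0, and the block called 1, 3 and 1. Bcl2a1a, Bcl2a1b, Bcl2a1d, Bcl2l10, Bcl2l14 and Dapk2 were too low to be tested in any line.

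The stress factors Atf4 and Ddit3 (CHOP), transcription factors that act on BH3-only and other death genes, rose with GRP. Atf4 rose by 0.81 ± 0.04 in 1057, 0.91 ± 0.12 in 1014-Grpr and 0.97 ± 0.19 in 1064. Ddit3 rose by 0.97 ± 0.06 in 1057 and 0.86 ± 0.14 in 1014-Grpr, and was at 1.11 ± 0.29 in 1064 (adjusted p = 0.0521, called under the block). Chac1 and Trib3, known targets of this branch, rose by 2.79 ± 0.17 and 1.44 ± 0.10 in 1057 and by 2.73 ± 0.49 and 1.26 ± 0.32 in 1014-Grpr, and passed in 1064 under the block only. Atf3, a related stress factor, rose by 3.08 ± 0.22 in 1014-Grpr and 0.17 ± 0.04 in 1057, and was at 1.42 ± 0.47 in 1064 (adjusted p = 0.103, called under the block).

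Cflar, whose product FLIP blocks caspase-8 at death receptors, rose in 1057 from 335, 329 and 324 to 566, 561 and 565 CPM (0.80 ± 0.03). It rose by 1.16 ± 0.10 in 1014-Grpr and by 0.63 ± 0.15 in 1064. The fibronectin receptor subunit Itga5, on the anoikis list, rose by 0.45 ± 0.03, 1.43 ± 0.08 and 0.96 ± 0.12 in 1057, 1014-Grpr and 1064. The p53 target Cdkn1a (p21), a cell-cycle inhibitor, rose by 0.72 ± 0.04, 2.27 ± 0.14 and 1.00 ± 0.19 in the same order, while Trp53inp1, another p53 target, fell by 0.92, 1.20 and 1.86 on the log2 scale. Cdkn1a and Trp53inp1 thus moved in opposite directions, and p53 activity was not tested.

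Bok and Sesn2 moved in opposite directions between lines. Bok, a BAX relative, fell in 1057 from 89, 105 and 94.2 to 68.1, 82.1 and 81.2 CPM (-0.29 ± 0.07, adjusted p = 0.00154), rose in 1064 from 4.17, 2.97 and 5.33 to 12.2, 15.7 and 9.81 CPM (1.60 ± 0.25, adjusted p = 0.0076) and rose by 1.41 ± 0.43 in 1014-Grpr (adjusted p = 0.0284), at a level below 2.3 CPM. Sesn2 was -0.36 ± 0.05 in 1057 and 1.18 ± 0.23 in 1014-Grpr, both called. Birc3 (cIAP2) was -0.33 ± 0.13 in 1057 and 0.61 ± 0.08 in 1014-Grpr, both called. The GRP effect in 1057 was below that in 1014-Grpr for all 3, by -1.67 ± 0.36 for Bok, -1.55 ± 0.24 for Sesn2 and -0.96 ± 0.15 for Birc3 (adjusted p = 0.00198, 6.22e-05 and 8.1e-05), and it was below that in 1064 for Bok (-1.88 ± 0.24, adjusted p = 0.000439) and Sesn2 (-1.02 ± 0.22, adjusted p = 0.0258).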

How the data were processed

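The libraries were stranded polyA RNA-seq, read with pairs of 100 bases. The submitters' processing notes name FastQC 0.11.5, STAR and the builds mm10 and GRCm38.p5, and the study's methods name the GENCODE M13 annotation. The deposited counts are the authors' raw counts per gene, of which 99.6% of 50600 rows pair an identifier with a symbol. The deposited TPM values are the authors' counts per length and depth (those of 1057 are written with a decimal comma), and were used only for levels between genes. Groups came from the labels.

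Each line was fitted on its 12 libraries with edgeR 4.0.16 (R 4.3.3, quasi-likelihood test, filterByExpr, TMM), with Benjamini-Hochberg adjustment over all tested genes and calls at an adjusted p under 0.05. Mock libraries of all lines, and pairs of lines for differences of the GRP effect, were fitted likewise. SE is the log2 fold change over the square root of F. A floor of 3 counts is at most 0.154 CPM of the raw library total. With TMM scaling it is up to 0.159 CPM in the 1064 mock libraries. The floor covers counting error only. Scripts were also run on simulated counts. The simulated libraries were independent, without an effect of the replicate number, so that run does not check the calls in lines where numbers pair the samples.

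Alternatives were RLE size factors, DESeq2 1.42.0, no filter, a replicate block, leaving out replicates or the 2 libraries against their labels, a fold threshold and 1 fit of all 72 libraries. Fits that leave out a replicate were made without the block, also in lines where replicate numbers pair the samples. In fits of more than 1 line, the block is an effect of the replicate number shared by the lines. Replicate numbers come from the labels. They pair the samples where each correlation of the deviations of same-numbered libraries exceeds 0.1. This held in 1064 (lowest r 0.583), 1014-Grpr (0.386) and 1181-Ctrl (0.740), and in 1181-Grpr (0.444) and 1014-Ctrl (0.340) only without the library against its label. It did not hold in 1057 (lowest r -0.15).

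The 10 members and the gene lists were chosen with earlier results of these data known. All members are reported. Of the listed pathway genes, at most 12 called with GRP in at least 2 lines are named, by largest mean absolute change, and likeness was taken for the member called in most lines. Upstream windows came from RefSeq, which matched 8 of 10 members.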

Additional observations from a re-analysis of the deposited data

Results flagged for a closer look

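These are differences between lines in the size of the GRP effect, each tested with edgeR as an interaction over all genes. The effect on Bcl2l1 was larger in 1014-Grpr than in 1014-Ctrl by 0.665 on the log2 scale and that on Bmf differed by -0.700. Both calls were lost without replicate 1 or without replicate 3, and Bmf also without replicate 2 or without a filter on low counts. The fits without replicate 1 or 3 keep the 1014-Ctrl mock library against its label. Without the 2 libraries against their labels the differences were 0.78 and -0.48, both called.

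The remaining differences are between receptor lines, in pairs chosen after the data were seen. The GRP effect in 1057 exceeded that in 1181-Grpr by 0.850 for Mcl1 and 0.711 for Bmf. It exceeded that in 1014-Grpr by 0.371 for Mcl1, 0.635 for Bcl2l11 and 1.03 for Bmf, and was below it by -0.519 for Bbc3. Leaving out the library against its label in 1181-Grpr gave 0.88 for Mcl1 and 0.74 for Bmf. The Grpr level differed between these lines as well (273 to 276 CPM in 1057, 108 to 141 in 1014-Grpr and 8.46 to 17.9 in 1181-Grpr in mock libraries), and its part in these differences was not tested.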

How the results depend on the processing

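Of 2475 values of single members under the alternatives, none changed sign while called, 2325 kept their side of the threshold, 42 came to pass it and 108 no longer did. Counts of members called moved as follows, and the cause was not tested. With a call rule that also asks for a log2 fold change above 1, GRP against mock had 0 calls in place of 13 (6 in 1057, 6 in 1014-Grpr and 1 in 1064), RC against mock 0 in place of 5, GRP+RC against mock 0 in place of 6, GRP+RC against GRP 0 in place of 5, the difference between Grpr and control lines 0 in place of 2, and the 4 resting pairs 5 in place of 11. In 1 fit of all 72 libraries, which share 1 estimate of spread, these counts were 7 (2 in 1057, 3 in 1014-Grpr and 2 in 1064), 0, 1, 0 and 0. With the replicate block, 1064 had 4 calls with GRP, GRP+RC against mock 11 and GRP+RC against GRP 8. Without the 2 libraries and with the block the latter were 11 and 9, and the difference between Grpr and control lines had 5. Without a filter on low counts it had 1. Leaving out a replicate gave 0 to 1 calls in 1064 with GRP, 3 for GRP+RC against GRP, 3 to 5 for RC against mock, 5 to 6 for GRP+RC against mock, 0 to 2 for the difference between Grpr and control lines and 5 to 11 for the resting pairs. Within lines whose numbers pair the samples, the block changed no other call than those given in the report, and in 1057, where they do not, GRP against mock had 7524 genes called with it and 7462 without. Depth limits Pmaip1 and Bik, which had at most 3 counts in 43 and 54 libraries.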
